A study of Mus musculus with 4 samples.

Results

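Genes of coagulation and fibrinolysis were examined in the perivascular adipose tissue (PVAT) of injured and sham-operated femoral arteries. The 9 genes, among 12661 in the deposited table, were picked by symbol from a list of names: the plasminogen activators *Plat* and *Plau*, the receptor *Plaur*, the procoagulant genes *F3*, *F5* and *F10*, and the anticoagulant genes *Tfpi*, *Thbd* and *Procr*. The list was chosen with earlier results of these data known. All 9 genes were found in the table and no filter removed any. RNA came from the tissue around the artery, which is mostly PVAT, of ovariectomized female C57BL/6 wild type mice, 11 weeks old, and was sequenced in bulk. The injury group had a wire 0.38 mm thick passed into the femoral artery, and the sham group had the operation alone, and tissue was taken from both at 48 h. Each group had 2 libraries, and the animals of both groups lacked ovaries. The labels do not say whether a library held 1 mouse or a pool, so the p-values measure only the spread between these libraries, which may be technical.

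Clotting in a vessel wall begins when tissue factor, the product of *F3*, meets factor VII of the blood. This pair activates factor X (*F10*), and activated factor X joins factor V (*F5*) in the complex that turns prothrombin into thrombin, which makes fibrin. Tissue factor pathway inhibitor (*Tfpi*) blocks the first of these steps, while thrombomodulin (*Thbd*) and the endothelial protein C receptor (*Procr*) bring thrombin and protein C together on the endothelium so that factor V is inactivated. Fibrin is dissolved by plasmin, which tissue plasminogen activator (*Plat*) and urokinase (*Plau*) cut from plasminogen, the latter held at the cell surface by its receptor (*Plaur*). Endothelial cells carry much of this anticoagulant and fibrinolytic apparatus, and the liver makes most of the circulating factors.

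Values are signed numbers on a log-like scale and are given in deposited units. The mean over the 4 libraries lay within 1 unit of 0 in 99.8% of genes, so the values do not follow abundance, and a value can be read only against the same gene in another library. Neither the base of the scale nor what the values are relative to is given in the sources used here, so differences are not turned into folds and the levels of different genes cannot be compared. The depth behind each value is unknown. The medians of the 4 libraries lay within 0.01 of 0, and the SD over genes was lowest in injury replicate 2 (0.32) and highest in sham replicate 1 (0.44). The leading principal component held 77.7% of the variance. The adipocyte markers *Adipoq* and *Plin1* were in the table, but their abundance cannot be read from such values. Differences were tested with limma over all 12661 genes with Benjamini-Hochberg adjustment and a threshold of 0.05. Of all genes, 7.43% passed, 3.76% higher and 3.67% lower after injury. Both injury libraries lay above both sham libraries in 31.6% of all genes and below them in 30.3%.

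Of the 9 genes, 1 rose after injury and 3 fell. *F10* rose, and *Thbd*, *Procr* and *Plat* fell. The other 5 did not pass the threshold, with *Plau* and *Plaur* at higher means after injury and *F3*, *F5* and *Tfpi* at lower means. Before adjustment 6 of the 9 had p-values under 0.05, against 29.5% of all genes (14.8% in each direction). The 9 genes were chosen with earlier results of these data known, so this share and the median below are descriptions only. The median difference of the 9 genes was -0.59, against 0.01 over all genes. It is the difference of *Tfpi*, which was again the median without sham replicate 2, at -0.38. The injury libraries lay outside the sham libraries in 8 of the 9, above them in 2 and below them in 6, and *Plau* was the exception. For the full table this share was 61.9%, so the lack of overlap alone says little about these genes. Without sham replicate 1 no gene of the table was called by limma, although 1960 genes and 6 of the 9 reached an unadjusted p-value under 0.05. Without sham replicate 2 only 1 gene of the table was called, none of the 9, and an unadjusted p-value under 0.05 was found for 2553 genes and 4 of the 9. Without injury replicate 1 *F10* was called higher and *Thbd* lower, and without injury replicate 2 *Plaur* and *F10* were called higher and *Thbd* lower.

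**Figure D1:**
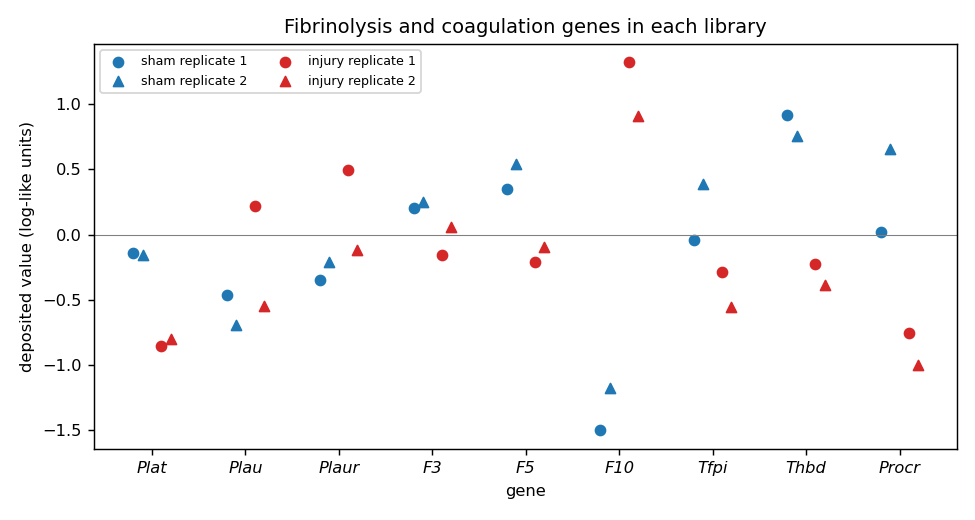
Deposited values (vertical axis, log-like units) of the 9 genes in each of the 4 libraries, sham in blue and injury in red, with circles for replicate 1 and triangles for replicate 2. *F10* runs from -1.50 in sham replicate 1 to 1.32 in injury replicate 1, and *Plau* is the gene whose groups overlap.

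*Plat* encodes tissue plasminogen activator, the protease that endothelium releases to dissolve clots. It lies on chromosome 8 of mm9 from 23868216 to 23893319. Its values were -0.14 and -0.16 in the sham libraries and -0.85 and -0.80 in the injury libraries. Both injury libraries were low, and libraries of a group lay close together, 0.02 apart after sham operation and 0.05 apart after injury. Injury minus sham was -0.68 (SE 0.13, adjusted p = 0.0449 from limma). This call was near the threshold and was lost with any library left out (adjusted p = 0.0511 to 0.246 from limma), while the difference stayed between -0.70 and -0.65. With a block for the replicate number *Plat* was not called either (adjusted p = 0.0736 from limma).

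*Plau* encodes urokinase, the activator used by migrating cells and leukocytes, on chromosome 14 from 21655884 to 21662610. It was at -0.46 and -0.70 after sham operation and at 0.22 and -0.54 after injury. Injury replicate 1 was high and injury replicate 2 lay between the sham libraries, so the groups overlapped. The difference of 0.42 had a 95% confidence interval from -0.27 to 1.10 (adjusted p = 0.366 from limma). Leaving out injury replicate 1 gave 0.04, and leaving out injury replicate 2 gave 0.80.

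*Plaur*, the urokinase receptor gene on chromosome 7 from 25247519 to 25260892, was at -0.35 and -0.21 in the sham group and at 0.50 and -0.12 in the injury group. Injury replicate 1 was again the high library, and injury replicate 2 lay only 0.09 above the nearer sham library. The difference was 0.47 (95% confidence interval -0.11 to 1.05, adjusted p = 0.246 from limma). Without injury replicate 2 it was 0.78 and was called (adjusted p = 0.0457 from limma), and without injury replicate 1 it was 0.16.

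Genes whose products work together were also set side by side within each library. The value of *Plau* minus that of *Plaur* was -0.11 and -0.49 in the sham libraries and -0.28 and -0.42 in the injury libraries, and these overlapped. The value of *Plau* minus that of *Plat* was -0.33 and -0.54 in the sham libraries and 1.07 and 0.26 in the injury libraries, a change of 1.10. The groups did not overlap in the latter value. These pairs were chosen after the data were seen, so no test is given for them.

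*F10* encodes factor X, the protease on which both routes of coagulation meet, and lies on chromosome 8 from 13037308 to 13056676. Its values were -1.50 and -1.18 in the sham libraries and 1.32 and 0.91 in the injury libraries. Both injury libraries were high, and the gap of 2.09 between the groups exceeded the gap of 0.33 between the sham libraries and of 0.41 between the injury libraries. Injury minus sham was 2.46 (SE 0.21, 95% confidence interval 1.94 to 2.97, adjusted p = 0.0285 from limma). It ranked 8 from the highest of the 12661 differences. With each library left out the difference was 2.25 to 2.66. The call was lost without sham replicate 1 (adjusted p = 0.176 from limma) and without sham replicate 2 (adjusted p = 0.113), and it held without injury replicate 1 (0.0442) and without injury replicate 2 (0.00731).

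*F3*, the tissue factor gene on chromosome 3 from 121426455 to 121437970, was at 0.20 and 0.25 after sham operation and at -0.16 and 0.06 after injury. The injury libraries were the lower ones, with 0.14 between the groups and 0.22 between the injury libraries. The difference of -0.28 had a 95% confidence interval from -0.64 to 0.09 (adjusted p = 0.276 from limma). Leaving out injury replicate 1 reduced it to -0.17.

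*F5* encodes factor V, the cofactor of activated factor X, on chromosome 1 from 166081969 to 166150408. Its sham values of 0.35 and 0.54 lay above its injury values of -0.21 and -0.10. The groups were 0.45 apart, more than the 0.19 between the sham libraries. The difference was -0.60 (SE 0.15), which did not pass over all genes (adjusted p = 0.0665 from limma, unadjusted 95% confidence interval -0.96 to -0.23). Thus *F10* and *F5*, whose products work in 1 complex, had differences of opposite sign. The value of *F10* minus that of *F5* was -1.86 and -1.72 after sham operation and 1.53 and 1.01 after injury.

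*Tfpi*, on the minus strand of chromosome 2 from 84273012 to 84316932, encodes the inhibitor of the tissue factor complex. Values were -0.04 and 0.39 in the sham libraries and -0.29 and -0.55 in the injury libraries. The injury libraries were low, but the gap between the groups (0.24) was smaller than that between the sham libraries (0.43). The difference was -0.59 (95% confidence interval -1.10 to -0.09, adjusted p = 0.126 from limma). Leaving out sham replicate 2 gave -0.38, and leaving out sham replicate 1 gave -0.81. The value of *F3* minus that of *Tfpi* was 0.25 and -0.14 after sham operation and 0.13 and 0.61 after injury, and these overlapped.

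*Thbd* encodes thrombomodulin, which turns thrombin from a clotting into an anticoagulant enzyme, and lies on the minus strand of chromosome 2 from 148230207 to 148233924. It was at 0.92 and 0.76 after sham operation and at -0.22 and -0.39 after injury. Both injury libraries were low, with 0.98 between the groups and 0.16 between the libraries of each group. Injury minus sham came to -1.14 (SE 0.15, adjusted p = 0.0291 from limma). It was -1.23 to -1.06 with each library left out. *Thbd* kept its call without injury replicate 1 (adjusted p = 0.0463 from limma) or injury replicate 2 (0.0216), and lost it without sham replicate 1 (0.176) or sham replicate 2 (0.113).

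*Procr*, the endothelial protein C receptor gene on chromosome 2 from 155576853 to 155581207, was at 0.02 and 0.66 in the sham group and at -0.76 and -1.003 in the injury group. The injury libraries were the low ones, and the sham libraries were 0.64 apart, the widest gap within the sham group among the 9 genes. Injury minus sham came to -1.22 (SE 0.24, adjusted p = 0.0473 from limma), the lowest of the 9. It came to -1.54 when sham replicate 1 was left out and to -0.90 when sham replicate 2 was. No call was made with any library left out (adjusted p = 0.0710 to 0.176 from limma). It was also lost after quantile normalization of the columns (0.0542), with the columns scaled to one standard deviation (0.0505), with a robust variance prior (0.0510) and with the replicate block (0.0619). *Thbd* and *Procr* act together on protein C. The value of *Thbd* minus that of *Procr* was 0.90 and 0.10 after sham operation and 0.54 and 0.62 after injury, so the sham libraries spanned the injury libraries.

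**Figure D2:**
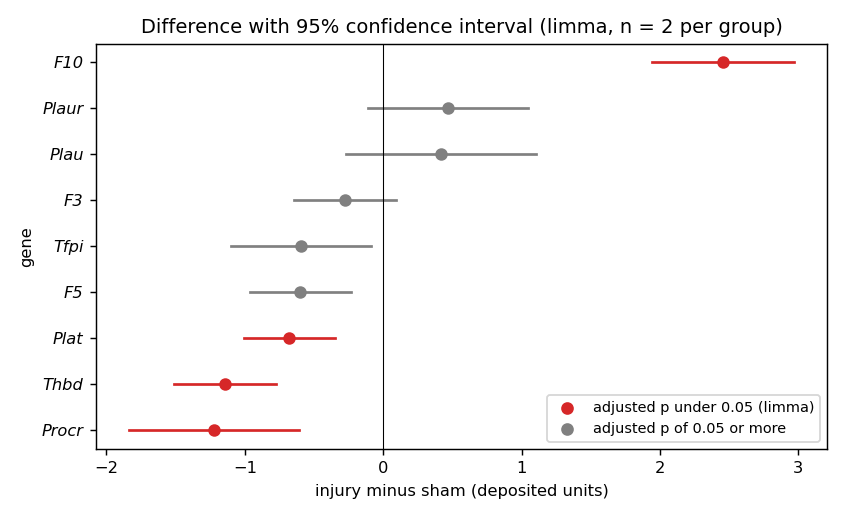
Injury minus sham (horizontal axis, deposited units) for the 9 genes with 95% confidence intervals from limma, 2 libraries per group, red where the adjusted p-value was under 0.05. *F10* stands at 2.46, away from the other genes, which run from -1.22 for *Procr* to 0.47 for *Plaur*.

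Promoter windows of 300 bases, 250 before and 50 from the transcription start, were taken from the RefSeq table of GRCm38.p6, which held 7 windows for 6 of the 9 genes. *Plat*, *Plau* and *Thbd* had no entry. Each of the 7 windows matched the mm9 genome exactly once, and the positions given are those of the match. The windows of *F10* and *Procr* are shown as those of the members with the highest and the lowest difference, and those of *Plaur* and *F3* as the other members with a match to the AP-1 motif TGANTCA, known from genes that answer to growth factors and inflammation. Capitals mark TGANTCA in *Procr*, *Plaur* and *F3* and the KLF motif CCACCC in *F10*, and all are on the plus strand of mm9, at chr8:13037058-13037357 for *F10*, chr2:155576703-155577002 for *Procr*, chr7:25247252-25247551 for *Plaur* and chr3:121426205-121426504 for *F3*.
F10: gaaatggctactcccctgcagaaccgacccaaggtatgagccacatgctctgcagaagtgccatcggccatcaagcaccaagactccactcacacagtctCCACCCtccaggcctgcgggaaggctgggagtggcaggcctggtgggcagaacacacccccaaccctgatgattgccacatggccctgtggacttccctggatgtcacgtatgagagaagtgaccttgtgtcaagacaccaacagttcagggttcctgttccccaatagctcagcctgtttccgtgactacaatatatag
Procr: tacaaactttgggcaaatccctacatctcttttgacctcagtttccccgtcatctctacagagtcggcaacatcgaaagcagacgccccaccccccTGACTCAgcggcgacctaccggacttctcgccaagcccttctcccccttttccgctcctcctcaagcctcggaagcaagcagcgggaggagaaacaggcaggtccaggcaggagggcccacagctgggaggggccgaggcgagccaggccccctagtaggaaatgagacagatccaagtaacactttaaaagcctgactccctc
Plaur: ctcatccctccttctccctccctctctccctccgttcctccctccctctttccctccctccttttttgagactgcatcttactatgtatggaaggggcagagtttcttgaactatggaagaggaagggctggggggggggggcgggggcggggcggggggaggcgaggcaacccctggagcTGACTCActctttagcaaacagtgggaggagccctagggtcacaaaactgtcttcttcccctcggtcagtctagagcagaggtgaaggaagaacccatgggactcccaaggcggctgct
F3: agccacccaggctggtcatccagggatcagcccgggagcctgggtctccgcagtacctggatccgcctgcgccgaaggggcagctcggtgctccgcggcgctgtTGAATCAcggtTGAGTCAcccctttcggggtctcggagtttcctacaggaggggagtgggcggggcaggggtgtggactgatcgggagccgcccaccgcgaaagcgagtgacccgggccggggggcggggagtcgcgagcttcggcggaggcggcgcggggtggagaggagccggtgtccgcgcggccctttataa
The AP-1 motif began 154 bases before the start in *Procr*, 69 before it in *Plaur*, and 146 and 135 before it in *F3*. It was in 3 of the 7 windows of these genes and in 7.81% of the 32851 windows of the table. Of the 3 genes that held it, *Procr* fell and *Plaur* and *F3* did not pass the test. The motif CCACCC began 150 bases before the start in *F10*, and was in 4 of the 7 windows (*F10*, *F3*, *F5* and *Procr*) and in 31.5% of all windows. The Sp1 motif GGGCGG was in the windows of *F3*, *F5*, *Plaur* and *Tfpi* (35.7% of all windows), and the EGR1 motif GCGGGGGCG in that of *Plaur* (2.91%), where it overlapped the Sp1 motif. The NF-kB motif (GGG and CC with any 5 bases between them) was in 6 of the 7 windows and in 50.8% of all windows, and overlapped an Sp1 motif in *F3*. TATAAA was in the windows of *F3* and *Tfpi* (13.6% of all windows), and the CRE motif TGACGTCA was in no window of these genes (1.79%). Both strands were searched, and a match to these letters is a description of the sequence only.

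The other genes of coagulation and fibrinolysis were taken from 5 lists, also chosen with earlier results of these data known. With the 9 genes left out, 29 of their 51 genes were analysed. Of these, 4 fell after injury (3.67% of all genes did) and the other 25 did not pass. None was called higher by limma, and before adjustment 1 gene with a higher and 12 genes with a lower mean had p-values under 0.05, where the share over all genes was 14.8% in each direction. Their median difference was -0.35. Plasminogen (*Plg*), prothrombin (*F2*), *F7*, *F9* and the fibrinogen genes *Fga*, *Fgb* and *Fgg* were not analysed here, nor were the 6 liver markers of the list fixed for this purpose, *Alb* among them.

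Among the activators and receptors of fibrinolysis 8 of 9 genes were analysed, and *Plat* was the gene called, lower. *Anxa2* and *S100a10*, whose products form a surface receptor for plasminogen and its activator, differed by 0.28 and -0.26 (adjusted p = 0.293 and 0.314 from limma). Of the 6 inhibitors analysed, *Serping1* (C1 inhibitor, which also blocks activated factor XII and kallikrein) fell. It was at 0.25 and 0.34 after sham operation and at -0.80 and -0.66 after injury, a difference of -1.03 (adjusted p = 0.0291 from limma). Its call was lost without injury replicate 1 (adjusted p = 0.0592 from limma) and without either sham library (0.124 and 0.176), as were those of *Vwf*, *Hs3st1* and *Entpd1* without either sham library (0.113 to 0.176). *Serpine2* (protease nexin 1, an inhibitor of thrombin and urokinase) was at 0.86 and 0.29 after sham operation and at -0.73 and -0.23 after injury, a difference of -1.06 that did not pass (adjusted p = 0.0695 from limma).

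Among the procoagulant genes 11 of 22 were analysed, of which *F10* rose and *Vwf* fell. *Vwf*, the von Willebrand factor gene that tethers platelets and carries factor VIII, went from 0.81 and 1.42 to -1.46 and -1.12. This difference of -2.40 (adjusted p = 0.0285 from limma) was about as large as that of *F10*, in the other direction. *F13a1*, the fibrin cross-linking enzyme gene, had a difference of 0.34 (adjusted p = 0.313 from limma). Among the anticoagulant genes 10 of 16 were analysed, 9 had lower means after injury and 4 fell (3.67% of all genes did). Besides *Thbd* and *Procr*, these were *Hs3st1*, an enzyme gene for the heparan sulfate that binds antithrombin, and *Entpd1* (CD39), which degrades the platelet agonist ADP. *Hs3st1* went from 1.07 in both sham libraries to -0.65 and -0.78 after injury, a difference of -1.79 (adjusted p = 0.0285 from limma). *Entpd1* went from 0.51 and 0.65 to -0.36 and -0.59, a difference of -1.05 (adjusted p = 0.0301 from limma). The median difference of the 10 anticoagulant genes was -0.87. It was -0.14 for the 11 procoagulant genes, 0.30 for the 8 activators and receptors and -0.61 for the 6 inhibitors. The mean value of the 8 activators and receptors was -0.28 and -0.18 after sham operation and 0.01 and -0.25 after injury, so the groups overlapped. The list medians were not recomputed with a library left out. Among the 3 thrombin receptors none was called by limma or reached an unadjusted p-value under 0.05, and *F2r*, the main receptor of thrombin on cells, differed by -0.20 (adjusted p = 0.722 from limma).

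**Figure D3:**
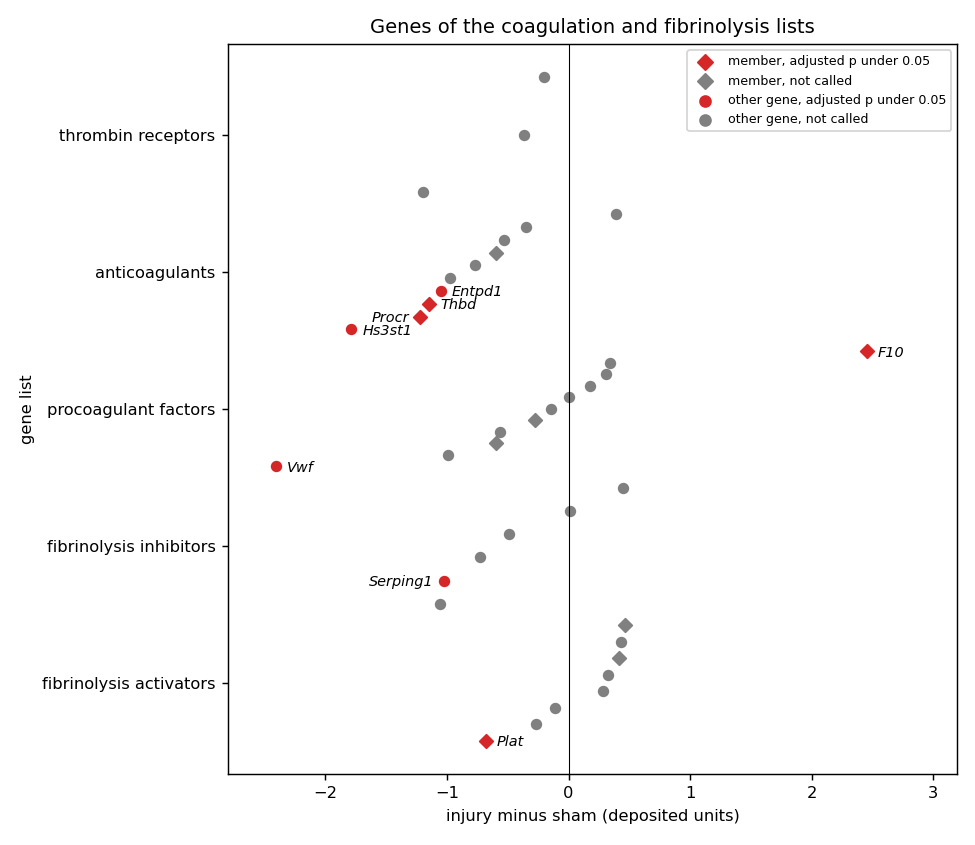
Injury minus sham (horizontal axis, deposited units) for the analysed genes of the 5 coagulation and fibrinolysis lists, diamonds for the 9 genes and circles for the others, red and named where the adjusted p-value was under 0.05. *F10* is the only called gene to the right of 0, and 7 called genes lie to the left, from *Vwf* at -2.40 to *Plat* at -0.68.

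Markers of other cells moved between the same groups. In bulk tissue fewer cells of a type and less RNA per cell cannot be told apart. The 10 endothelial markers all had lower means after injury, 9 with no overlap (30.3% of all genes) and 2 (*Pecam1* and *Erg*) called lower (3.67% of all genes). Their summed value was 5.56 to 5.72 in the sham libraries and -1.05 to -0.41 in the injury libraries, and their mean difference was -0.64. With all 4 libraries the differences of *Thbd* and *Procr* were lower than those of all 10 markers. This did not hold for *Thbd* without sham replicate 1 or without injury replicate 2, where 1 marker was lower, nor for *Procr* without sham replicate 2, where *Pecam1* and *Erg* were lower. It also depends on the markers listed. The list leaves out *Vwf*, counted here with the procoagulant genes, whose difference of -2.40 was lower than those of *Thbd* and *Procr*. After the mean of the markers in the same library was subtracted, *Thbd* was at 0.35 and 0.20 after sham operation and at -0.12 and -0.35 after injury, a change of -0.51. *Procr* treated in the same way was at -0.55 and 0.10 and then at -0.65 and -0.96, a change of -0.58. *Plat* was at -0.71 in both sham libraries and at -0.75 and -0.76 in the injury libraries, a change of -0.04. The changes of *Tfpi* and *F5* relative to the markers were 0.04 each, and that of *F3* was 0.36. *Tfpi* was at -0.61 and -0.16 after sham operation and at -0.18 and -0.51 after injury. *F5* was at -0.22 and -0.02 and then at -0.10 and -0.06, and the groups overlapped for *Tfpi* and *F5*. The part of the endothelial markers in these results was not tested.

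Of the 10 macrophage markers, 9 lay higher in both injury libraries (31.6% of all genes), 5 of them called (3.76% of all genes). *Mertk* was the exception. Their summed value was -10.4 to -9.69 in the sham libraries and -0.87 to 5.29 in the injury libraries, with injury replicate 1 the higher, and their mean difference was 1.23. The difference of *F10* was above those of all 10 markers, or of 9 without injury replicate 2, and relative to their mean *F10* was at -0.46 and -0.21 after sham operation and at 0.79 and 0.996 after injury, a change of 1.23. *Plau* and *Plaur* had smaller differences than 9 of the 10 markers and changed by -0.81 and -0.76 relative to the marker mean. The 6 neutrophil markers analysed were all higher in both injury libraries (31.6% of all genes), with sums of -7.73 to -5.66 and then 0.34 to 8.08. The part of these markers in the values of *F10*, *Plau* and *Plaur* was not tested. Of the 9 platelet markers none was called by limma and 2, *Pf4* and *Ppbp*, reached an unadjusted p-value under 0.05, both higher after injury, where the share of all genes was 14.8% higher and 29.5% in either direction. In the smooth muscle list 4 of 7 genes fell (3.67% of all genes did), and its sums were 6.14 to 11.1 after sham operation and -8.39 to -1.36 after injury. In the fibroblast list 4 of 7 genes fell, against the same 3.67% of all genes. The adipocyte list had 4 genes with higher and 4 with lower means, and 1 of the latter, *Plin1*, fell (3.67% of all genes did). The 4 skeletal muscle markers analysed had lower means after injury, with differences from -1.04 to -0.67. None passed in limma, while 2 had p-values under 0.05 before adjustment (14.8% of all genes in this direction). Their sums were 3.56 and -0.16 in sham replicates 1 and 2 and -1.30 and -1.72 in injury replicates 1 and 2, so sham replicate 1 stood apart.

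**Figure D4:**
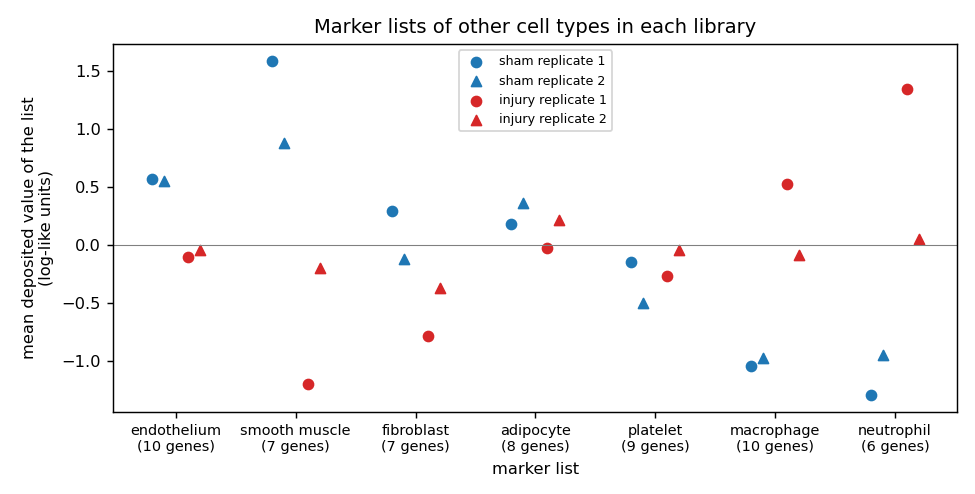
Mean deposited value (vertical axis, log-like units) of 7 marker lists in each library, sham in blue and injury in red, with circles for replicate 1 and triangles for replicate 2. Endothelial and smooth muscle markers lie lower, and macrophage and neutrophil markers higher, in both injury libraries, with injury replicate 1 farther from the sham libraries than injury replicate 2 in all 4 of these lists.

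The genes whose values over the 4 libraries were most like those of *F10*, by the Euclidean distance after the mean of each gene was removed, were *Lat2* (distance 0.11), *Ccr2* (0.18) and *Clec12a* (0.22), and 17 genes lay within 0.5. *Lat2* had values of -1.74 and -1.48 after sham operation and of 1.01 and 0.52 after injury. For *Procr* the nearest genes were *Fam174b* (0.11), *Ackr3* (0.13) and *Rassf10* (0.18), with 80 genes within 0.5. Likeness over 4 libraries is a description of these libraries.

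**Figure D5:**
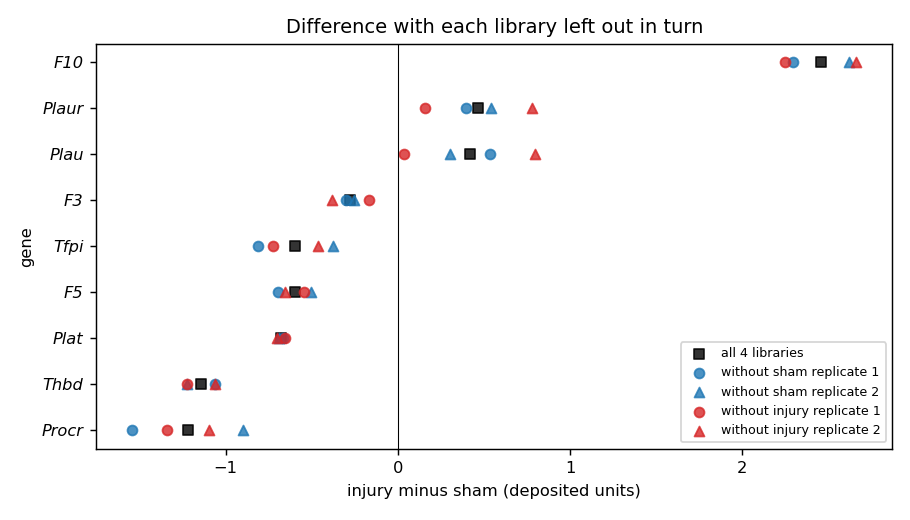
Injury minus sham (horizontal axis, deposited units) for the 9 genes with all 4 libraries (black squares) and with each library left out in turn. No gene changes sign, which leaving out a library could do only where the groups overlap (*Plau*). *Plat* stays between -0.70 and -0.65, and *Plau* runs from 0.04 to 0.80.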

How the data were processed

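RNA from 4 libraries (480 ng of total RNA each, stranded mRNA kit, 150 bp paired-end reads) was processed by the authors with FastQC 0.11.8, Cutadapt 1.18, Trimmomatic 0.39, STAR 2.6.0a (mm9), featureCounts and DESeq2 1.28.0, as their methods and processing notes state. The deposited values are signed scores, and not counts. The step from counts to these scores, the log base and the gene filter are not given in the sources used here. Since a count model could not be used, limma 3.58.1 under R 4.3.3 (lmFit, eBayes, group as the only term, no filter) was used, and it added 3.48 prior degrees of freedom to 2 residual ones. In simulated data with 12661 genes, few of them changed, it called 20.0% of genes changed by 1 unit and 67.8% of those changed by 2 units. A missed call is thus not a sign of no change. The adjustment depends on how many genes change, so these rates need not hold in the real data. With 1 library left out, the lone library is assumed to vary like the other group. Depth is unknown, so no counting error is given. The 9 genes and the lists were chosen with earlier results of these data known. Genes named were the 9, other pathway genes that passed, *F2r*, *F13a1*, *Vwf* and *Serpine2*, and the 3 genes nearest to the highest and the lowest member. Another gene of the naming rule is not reported here. *Anxa2*, *S100a10* and the marker genes were named after their values were seen. Gene positions are those of GENCODE vM1 (NCBIM37, the assembly of mm9). Python 3.11.15 with pandas 2.3.3, numpy 2.4.6 and matplotlib 3.10.9 made the tables and plots. Alternatives were quantile normalization, column scaling, median centring, a robust prior, a threshold of 0.1, identical genes counted once, a replicate block and leaving out each library.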

Additional observations from a re-analysis of the deposited data

How the results depend on the processing

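No difference of the 9 genes changed sign under any alternative, but few of the alternatives could change one. The threshold, the robust prior, identical genes counted once and the replicate block leave a difference as it is. Leaving out a library can turn its sign only where the groups overlap, here in *Plau*. Quantile normalization, columns scaled to one standard deviation, median centring, a robust variance prior and identical genes counted once left 861 to 1119 genes called by limma, against 941, and called *F10*, *Thbd* and *Plat* in each. At an adjusted p-value under 0.1 the count was 2317, and 10 other pathway genes were called lower in place of 4, while *F5* joined the 3 members called lower. Replicate numbers were shared between the groups, but nothing ties them to a common animal or day, and the deviations of same-numbered libraries had a correlation of -0.09 over genes. With the replicate block 684 genes were called, 579 of them also called without it, and of the 9 genes *F10* was called higher and 1, *Thbd*, lower. With each library left out in turn, 0 to 1790 genes were called by limma, 0 to 2 of the 9 genes higher, 0 to 1 lower, and of the other pathway genes 0 to 1 higher and 0 to 6 lower. The low ends of the counts over all genes and of members called came without a sham library, and the cause was not tested. Depth, and with it any limit from low expression, is unknown.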
